A study of Mus musculus with 18 samples.

Results

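Mknk2, Eif4e2 and Pabpc1 encode regulators of the 2 ends of a messenger RNA during translation, and they were followed over 6 days of erythroid differentiation in a mouse cell line. Each gene had 1 probe on the array, so the set held 3 of 6868 probes and 3 of 5974 genes named by a single symbol. The genes were taken by their symbol in the platform annotation, and the members were chosen by their early and late log2 ratios on these same arrays. Their levels and differences are therefore given as a description, without tests.

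The cells were murine erythroleukemia (MEL) cells, an established line of transformed mouse erythroid precursors that moves toward hemoglobin-making cells when hexamethylene bisacetamide (HMBA) is added. Total RNA from cells on days 1 to 6 of HMBA was hybridised on two-colour arrays against RNA of uninduced control cells. At day 0 both channels carried RNA of the control. Series A had 1 array for every day from 0 to 6, and series B lacked day 1. Besides these, 5 arrays titled SD belonged to series B and stood for days 0, 2, 3, 5 and 6, and on those of induced cells the labels exchange the channels of induced and control RNA. Fits used the 13 arrays other than SD, because the sign of the SD arrays was not settled. The labels gave no strain, allele, dose of HMBA or culture of origin, so the spread between arrays may be technical. All cells were of 1 line, which models commitment in culture and not marrow.

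A messenger RNA is translated when eIF4E holds its methylated cap and the scaffold eIF4G joins that cap to the ribosome. Mnk2, the product of Mknk2, is a kinase that docks on eIF4G and phosphorylates eIF4E. The product of Eif4e2, called 4EHP, also holds the cap but does not bind eIF4G, and it is known for silencing messages whose cap it holds. Cytoplasmic poly(A)-binding protein 1, made from Pabpc1, coats the tail at the other end and touches eIF4G, which brings both ends together. Red cell precursors depend on translation control because they make globin in bulk while many other messages disappear.

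Start sites were on record for Mknk2 and Eif4e2, and the 60 bases before each are shown so that the upstream regions of both cap regulators can be seen beside each other. Both come from RefSeq on build GRCm38.p6 and run 5′ to 3′ on the gene's own strand. Capitals mark a TATAAA motif. Mknk2 lies on the minus strand (chr10:80676294-80676353), and for Eif4e2, on the plus strand, the most upstream of 3 start sites was used (chr1:87213851-87213910).
Mknk2: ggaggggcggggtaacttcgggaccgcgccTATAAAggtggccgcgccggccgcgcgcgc
Eif4e2: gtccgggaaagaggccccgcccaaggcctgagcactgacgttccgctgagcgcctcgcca
The motif of Mknk2 begins 30 bases before the start. TATAAA was found on either strand in 13.6 percent of 32851 windows that reach from 250 bases before to 50 after a start, which are the windows searched. AGATAA and TGATAA, spellings of the GATA motif, occur in 11.2 and 9.05 percent of windows and CACGTG, an E-box, in 7.15 percent. These 3 motifs were in no window of Mknk2 or Eif4e2, and TATAAA was in no window of Eif4e2. No motif overlapped another. Of the printed bases, 76.7 percent were G or C for Mknk2 and 70.0 percent for Eif4e2. A promoter of Pabpc1 was not analysed here.

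Values below are log2 ratios centred on the median of their array, which moved the median late difference over all probes from 0.46 to 0.21. The likely direction is induced over control, chosen because adult globin genes then read higher late, as is known for HMBA. Between 2008 and 4945 probes had a value on the 13 arrays. Of these, 1221 with a value on at least 11 arrays, including 1 of day 0, entered the fits. The globin values chose the direction and so do not check the erythroid label. The alpha-globin family probe Hba-ps3 had a mean of 0.59 on day 0 and 5.02 over the late arrays, and the adult beta-globin Hbb-b2 had 0.026 and 2.36. Of 6 other erythroid markers, 5 had day 0 values, and in each the late mean was above the day 0 mean. Among these Alas2, the erythroid enzyme that starts heme synthesis, had -0.69 on 1 day 0 array, 1.60 on 2 early and 2.78 on 4 late arrays. The late means of Epb42 and Tfrc were 1.56 and 1.34. Those of Gata1 and Klf1 stayed below 0, at -0.36 and -0.80, from day 0 means of -1.13 and -1.77. The day 0 arrays of Gata1 ran from -2.44 to 0.17. Of all probes fitted late, 62.7 percent were higher than on day 0. Slc4a1, the band 3 anion exchanger, had values on 3 of the 13 arrays and none at day 0. Markers of macrophages, lymphoid cells, mast cells and fibroblasts had 26 probes, of which 25 had some value and 0 passed the filter. Among those of mast cells Mcpt2, a protease, had -1.04 on 1 day 0 array and means of -0.99 over 2 early and -4.18 over 6 late arrays. Hdc, which makes histamine, had means of 1.74 on day 0, -0.26 over 3 early and 0.70 over 3 late arrays. The other 5 mast cell markers with a value had it on 1 or 2 arrays. Macrophage markers with a day 0 value did not fall in this way. Mpeg1 had means of 0.76 on day 0, 1.72 over 2 early and 1.62 over 3 late arrays. Lyz1 had -0.12 on 1 day 0 array, 0.51 over 2 early and 1.54 on 1 late array. Adgre1 had 0.0046, -0.37 and 0.13. The part of other cell types in the members' values was not tested. In RNA of whole cultures, fewer cells making a transcript and less transcript per cell cannot be told apart.

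Mknk2 had the highest late ratios of the set. In series A, Mknk2 had no value at day 0, and its ratios from day 1 to day 6 were, in order, -0.99, 1.87, 1.42, 3.10, 3.27 and 1.12. The series B ratios were -0.41 at day 0 and then, from day 2 to day 6, 2.61, 0.90, 2.47, 2.30 and 2.44. Every induced array from day 2 on lay above both the single day 0 array and the day 1 array. Within series B, 21.5 percent of 1089 probes had all induced arrays above day 0, as Mknk2 did. On late arrays Mknk2 stood near the top of the array, with 88.6 to 99.6 percent of that array's values below it. On day 1 only 15.3 percent were below it.

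By day, Mknk2 means were 2.79 for day 5, 2.78 for day 4, 2.24 for day 2, 1.78 for day 6 and 1.16 for day 3. Neighbours in that order differed by less than the distance between the 2 arrays of a day (up to 1.32 log2). The step from day 3 down to day 0, of 1.57 log2, was larger than the distance of 0.52 between the day 3 arrays, but day 0 was a single array. Days 2 and 3 fell in the same order in both series, with day 3 the lower.

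Late in the course, over days 4, 5 and 6, Mknk2 was 2.86 log2 above day 0 (SE 0.94, 6 of 6 late arrays). Late arrays all lying above day 0 was a pattern shared by 5.57 percent of 1221 probes. That share is not matched to Mknk2, which had 1 day 0 array to clear, while probes with both had to clear each. Early, as the mean of the averages of days 1 and 2, it was 1.03 log2 above day 0 (SE 1.02), although the 3 early arrays spread from -0.99 to 2.61. Late exceeded early by 1.83 log2 (SE 0.64, with day 1 on 1 array).

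**Figure D1:**
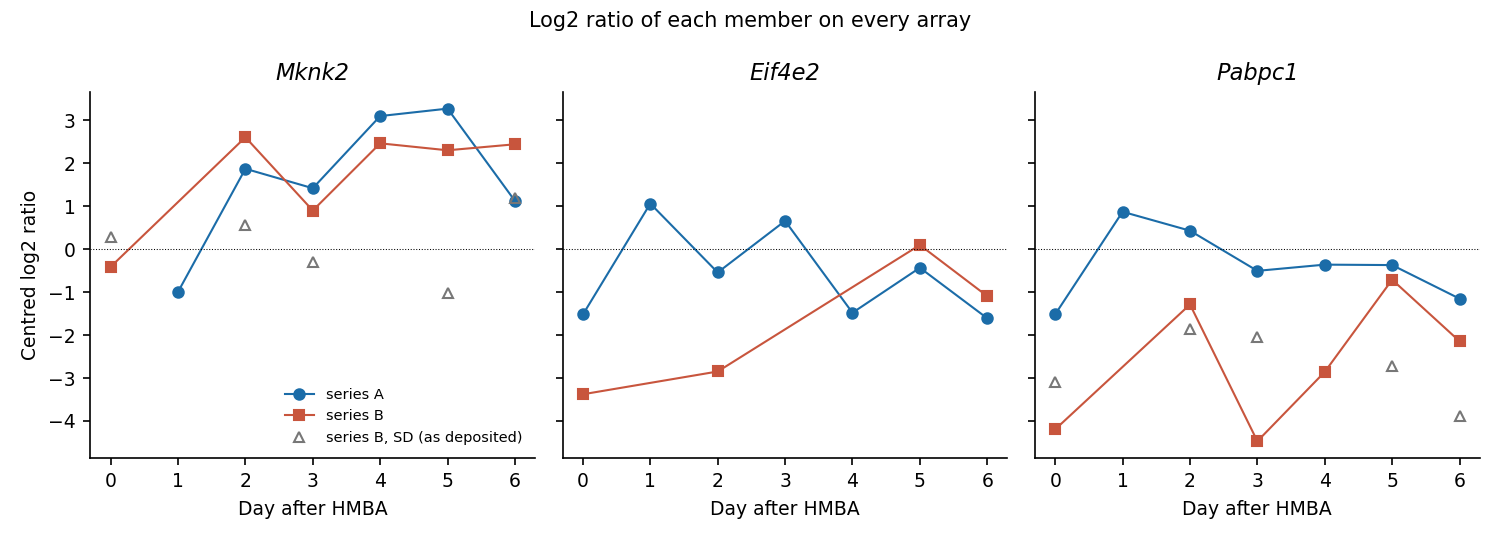
Centred log2 ratio of Mknk2, Eif4e2 and Pabpc1 (1 panel each) against the day after HMBA, with 1 point per array; circles are series A, squares series B and open triangles the SD arrays with their sign as deposited. Mknk2 sits above 0.90 on every induced array of series A and B from day 2 on, while Eif4e2 and Pabpc1 have their lowest or near-lowest values of each series on day 0.

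The late timing of Mknk2 rested on day 1, which series A alone had. Within series A the late mean was 2.50 and the early mean 0.44, a difference of 2.06 log2. Within series B, where day 2 is the early array, late was at 2.40 and early at 2.61, a difference of -0.20. With day 2 alone as early, a choice made after these values were seen, late exceeded early by 0.21 log2 (SE 0.71). Mknk2 was then 2.65 log2 above day 0 (SE 1.07) by day 2, close to its late difference.

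The SD arrays did not show the high ratios of Mknk2. As deposited, days 0, 2, 3, 5 and 6 read 0.27, 0.57, -0.30, -1.03 and 1.19 in that order. These values overlap the SD array of day 0, and 2 of the 4 induced ones lay above it. With all 18 arrays, SD signs as deposited, and a term for orientation, the late difference was 1.62 log2 (SE 0.77) and the early one -0.081. With the SD arrays turned and averaged in, the late difference was 2.39 and the early one 0.57.

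Eif4e2 was low on day 0 and reached its highest ratios on single arrays of different days. Its series A ratios from day 0 to day 6 were, in order, -1.52, 1.06, -0.54, 0.66, -1.48, -0.43 and -1.61. In series B days 0, 2, 5 and 6 gave -3.38, -2.85, 0.10 and -1.09, and days 3 and 4 had no value. Late arrays overlapped day 0, since days 4 and 6 of series A were at the level of its day 0 array. None of the SD arrays held a value, so 11 of 18 arrays measured Eif4e2.

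Against its own day 0 array, Eif4e2 was higher on 5 of 6 induced arrays of series A, by -0.089 to 2.58 log2. It was higher on 3 of 3 in series B, by 0.53 to 3.48. Across tested probes, 11.5 percent had every induced array of series A above day 0, and 21.5 percent had this in series B. By day the order of means was day 1 (1.06), day 3 (0.66), day 5 (-0.17), day 6 (-1.35), day 4 (-1.48), day 2 (-1.69) and day 0 (-2.45). Among the last 4 of these days, neighbours did not differ beyond the distance between arrays, which was 2.31 log2 on day 2.

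In the fit Eif4e2 was 2.13 log2 above day 0 early (SE 0.94) and 1.45 late (SE 0.85), with late minus early at -0.68 (SE 0.77). The series ran opposite ways. Late minus early was -1.43 in series A and 2.35 in series B, where day 2 was the only early array. Over all tested probes with both values, 50.7 percent had the same sign in the 2 series. With day 2 alone as early the value over both series was 0.70 (SE 0.85), so no early or late timing of Eif4e2 held across them. Early arrays all above late arrays were seen for 1.92 percent of 1197 probes and the reverse for 1.06 percent of 1221, and no member showed either pattern.

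**Figure D2:**
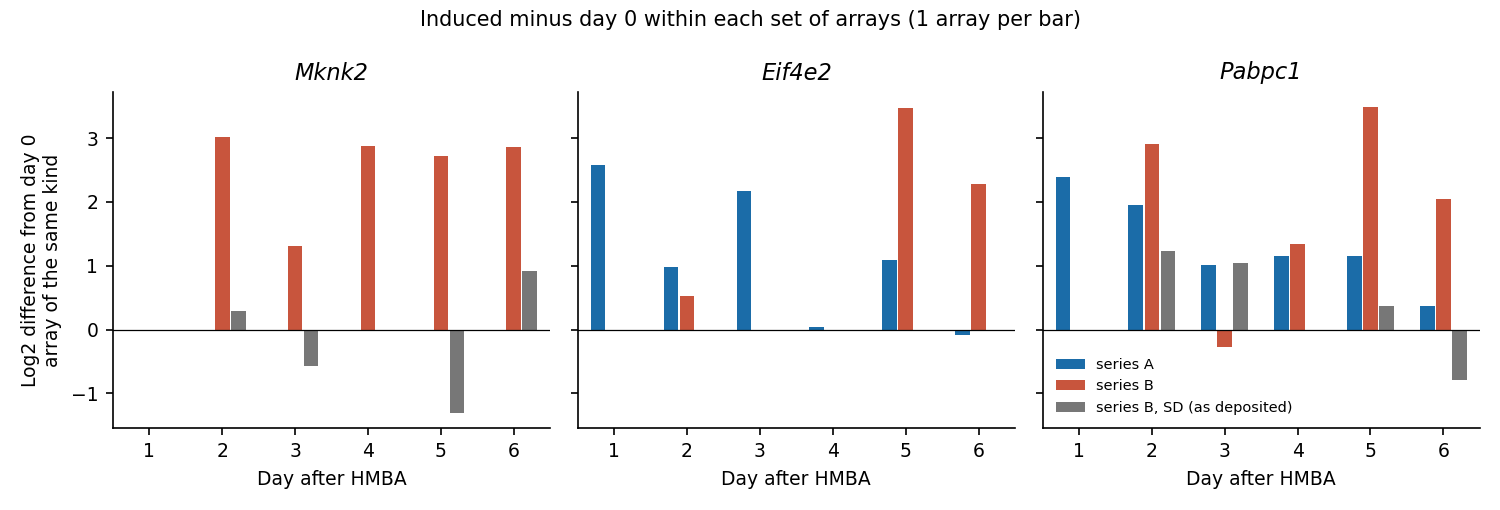
Difference in log2 ratio between each induced array and the day 0 array of the same set, with 1 array per bar, for series A, series B and the SD arrays as deposited. In series B, Mknk2 bars lie between 1.31 and 3.02 from day 2 on, and those of Pabpc1 between -0.28 and 3.48; series A has no Mknk2 bar because its day 0 array had no value.

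Pabpc1 was measured on all 18 arrays and, with days 1 and 2 as early, had the largest early difference of the set. With day 2 alone it was at 2.43 log2, below the 2.65 of Mknk2. From day 0 to day 6 the Pabpc1 ratios of series A were -1.52, 0.87, 0.43, -0.50, -0.36, -0.37 and -1.15. All 6 induced arrays of that series were above day 0, a pattern shared by 11.5 percent of 1204 probes, and days 1 and 2 were the highest. Series B gave -4.19 at day 0 and then, from day 2 to day 6, -1.29, -4.47, -2.86, -0.71 and -2.14. There day 5 was the highest and day 3 was below day 0, so 4 of 5 induced arrays were above it.

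Early, Pabpc1 was 3.08 log2 above day 0 (SE 1.19). Of tested probes 99.8 percent had a smaller early difference, but Pabpc1 was chosen by these ratios, so its rank is no test. The 3 early arrays, from -1.29 to 0.87, did not overlap the day 0 arrays, a pattern shared by 18.1 percent of 1197 probes. Late, it was 1.59 log2 above day 0 (SE 1.04), and the late arrays, from -2.86 to -0.36, overlapped day 0. Late minus early was -1.49 (SE 0.93). As in 50.7 percent of 1193 probes, it had the same sign in both series, below 0 in series A (-1.28) and in series B (-0.62). On the SD arrays, which also belong to series B, it was -1.44 as deposited and would be above 0 with the sign turned. It was -0.98 (SE 0.68) with the series letter as a block and -0.84 (SE 1.04) with day 2 alone as early. By day the means were highest for day 1 (0.87), followed by day 2 (-0.43), day 5 (-0.54), day 4 (-1.61), day 6 (-1.65), day 3 (-2.49) and day 0 (-2.86). No neighbours in that order differed beyond the distance between the arrays of a day, which reached 3.97 log2 on day 3.

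The size of the Pabpc1 and Eif4e2 differences moved with the day 0 arrays used. With control RNA on both sides of the day 0 arrays, the Pabpc1 ratio was -1.52 in series A and -4.19 in series B. Only 4.50 and 0.835 percent of those arrays' values were lower. The Eif4e2 ratio was -1.52 and -3.38 on the same arrays, with 4.45 and 2.90 percent lower. The mean over day 0 arrays was -2.86 for Pabpc1 and -2.45 for Eif4e2, where all tested probes had a median of 0.12. For Mknk2 it was -0.41. Without day 0 of series B, Pabpc1 was 1.74 log2 above day 0 early and 0.25 late. Eif4e2 was then at 1.20 and 0.52, and Mknk2 had no day 0 value left. Without day 0 of series A, Pabpc1 was at 4.42 early and 2.93 late, and Eif4e2 at 3.06 and 2.38. Set against a ratio of 0 and not against day 0, Pabpc1 was at 0.22 early and -1.27 late, and Eif4e2 at -0.32 and -0.9995. The late means of both genes were thus above the day 0 mean and below 0, while single late arrays of each overlapped day 0.

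On the SD arrays, Pabpc1 read -3.10 at day 0, and -1.87, -2.06, -2.73 and -3.89 for days 2, 3, 5 and 6. The SD array of day 0 thus also read low with its sign as deposited, with 5.31 percent of its values lower. With the sign turned it would read high, and only the other day 0 arrays would show the low ratio. As deposited, days 2, 3 and 5 lay above the SD array of day 0, and day 6 below it. With the SD arrays turned and averaged in, Pabpc1 was 1.65 log2 above day 0 early and 0.56 late. Members of the Pabpc family have closely related sequences, and whether the probe separates them was not tested. The Pabpc2 probe had values on 2 of the 13 arrays, 0.64 on day 0 and 1.13 on 1 early array.

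**Figure D3:**
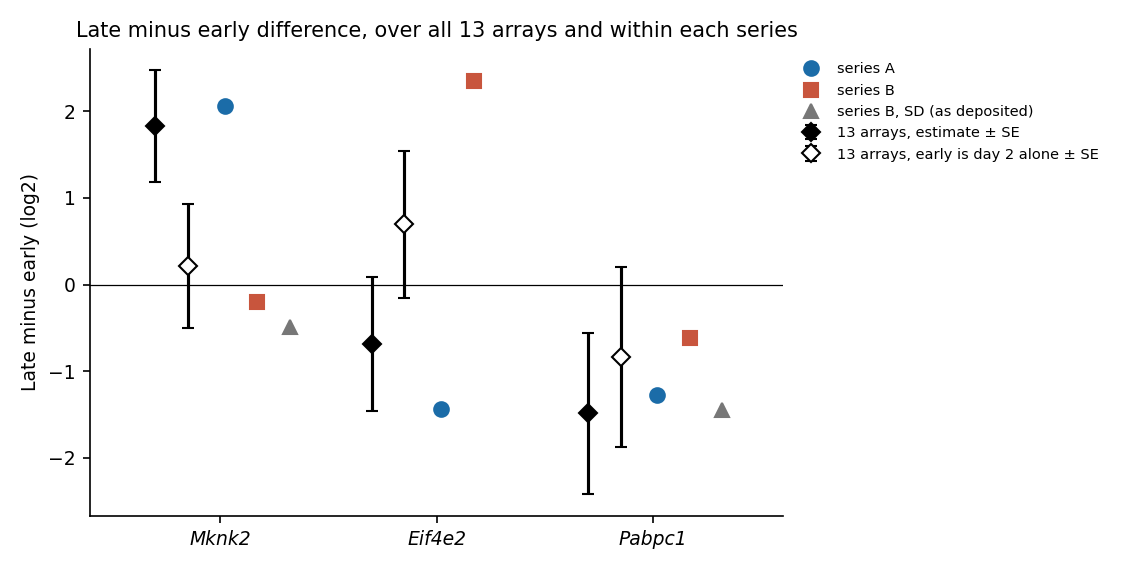
Late minus early difference in log2 ratio for each gene. Filled diamonds are the fit over 13 arrays and open diamonds the same with day 2 alone as early, both with the SE as bars, and coloured symbols are single series without error. Mknk2 is at 2.06 in series A and -0.20 in series B, and Eif4e2 at -1.43 and 2.35. Pabpc1 is below 0 in both series and, with the sign as deposited, on the SD arrays. Of 1193 probes, 50.7 percent had the same sign in series A and B.

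Other genes of cap-dependent translation were read from lists of related genes, which were drawn up with results of these data known. The fit with limma called 0 of 1060 probes early, 0 of 1211 late and 0 of 1050 for late minus early at an adjusted p under 0.05, which is 0 percent in each. At an unadjusted p under 0.05 there were 37, 28 and 67. Single arrays moved these unadjusted counts. Dropping the day 0 array of series B left 0 early and 3 late. Dropping the day 2 array left 12 early and 20 for late minus early where it was that of series A, but 73 and 137 where it was that of series B. The late count was 18 once the day 4 array of series A was dropped, and late minus early had 40 or 39 once that of day 5 or day 6 of series B was. Counts of called list genes are therefore 0 throughout, and directions below are descriptive.

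Of the cap list, 9 of 25 genes were on the array and 4 probes passed the filter, among them Mknk2 and Eif4e2. Eif4ebp1, whose product 4E-BP1 keeps eIF4E from eIF4G, was 2.92 log2 above day 0 early (SE 1.29) and 1.32 late (SE 1.12). Its adjusted p was 0.999 early and 0.9999 late in limma. In series A the Eif4ebp1 ratios from day 0 to day 6 were -1.40, 0.20, 1.25, -0.17, -0.57, -0.77 and -0.30. In series B they were -4.28 at day 0 and -1.32, -3.73, -2.84, -3.86 and -0.80 from day 2 to day 6. In each series it was lowest on the day 0 array. All induced arrays lay above day 0 for 11.5 percent of 1204 probes in series A and 21.5 percent of 1089 in series B. Eif4a1, a helicase of the cap complex, was at 0.12 early and 0.55 late.

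Partners of the members that fell below the filter are given by their means. Eif4e, the target of Mnk2, had 0.44 on day 0, 1.09 on 2 early and 0.31 on 4 late arrays, and so stayed in a range of -0.75 to 1.31 over 10 arrays. Mknk1, the sister kinase, had no day 0 value, a mean of -1.51 over 3 early and 0.76 over 3 late arrays, with single arrays from -3.23 to 1.66. Eif4ebp2, a second inhibitor of eIF4E, had -1.03 on 1 day 0 array, -0.66 early and -0.98 late. Eif4g2, a relative of the scaffold that does not bind eIF4E, had -0.34 on day 0, -0.025 on 1 early and -0.38 on 5 late arrays. Among upstream kinases only Akt1 passed the filter, at 0.0042 early and 0.28 late (adjusted p = 0.999 and 0.9999 in limma). Mtor, whose complex phosphorylates 4E-BP1, had -1.79 on day 0, 0.31 on 2 early and -0.63 on 3 late arrays.

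The poly(A) list had 13 probes of 12 genes, and 4 passed the filter. Pabpn1, the nuclear poly(A)-binding protein, was below it and had -1.37 on day 0, 0.21 on 2 early and -1.004 on 4 late arrays. Its ratio was -0.12 on day 0 of series A and -2.62 on day 0 of series B. Of components of the deadenylase complex, Cnot9 was at 0.26 early and 0.24 late, and Cnot4 had means of 0.65 on day 0, 1.19 early and 0.54 late. Btg1, which recruits the deadenylase, had -0.064 on day 0, 0.042 early and -0.98 over 6 late arrays.

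Pabpc1 belongs to the messages that start with a terminal oligopyrimidine (TOP) tract, as do those of ribosomal proteins and elongation factors. Of non-ribosomal TOP genes, 8 had probes, and 7 passed the filter, Pabpc1 included. Their median on day 0 was -2.21, with 7 of 7 below 0 (all tested probes: 45.1 percent). The 4 without Pabpc1 that the early difference could fit were all above day 0, with a median of 1.06 (all probes: median 0.16, 57.3 percent higher). Late, 2 of 6 were above day 0, with a median of -0.11 (all probes: 0.21, 62.7 percent higher). For late minus early 4 of 4 were below 0, with a median of -1.40 (all probes: 0.029, 51.1 percent above 0). None passed the threshold. The early median of these genes was 0.62 once the day 0 array of series B was left out, 1.57 once that of series A was, and 0.039 against a ratio of 0. The late median changed sign without centring (0.11), with equal spread (0.22) and when the day 0 array of series A (0.50) or, in series B, the day 4 (0.37) or day 6 array (0.062) was dropped. With day 2 alone as early, late minus early was -0.87, with 1 of 6 above 0.

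Eef1b2, an exchange factor of elongation, was 2.37 log2 above day 0 early (SE 1.31) and at -0.052 late (SE 1.15), with late minus early at -2.42 (SE 1.03, adjusted p = 0.73 in limma). Npm1, a nucleolar chaperone, was at 1.61 early and -0.16 late, and Eef1a1, the main elongation factor, at 0.52 and -0.51. Hnrnpa1 was at 0.27 and 0.16. Over initiation factors, 5 of 13 probes could be fitted for late minus early, with a median of -0.51. Eif2s3y and Eif3i, subunits of eIF2 and eIF3, were at -1.80 and -1.26, and Eif3a at -0.51. Eif2b4 and Eif1a were at 0.54 and 0.61, each with adjusted p of at least 0.73 in limma. Gspt1, a termination factor, was at -0.33. Of 6 probes for decapping and decay, 0 passed the filter.

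**Figure D4:**
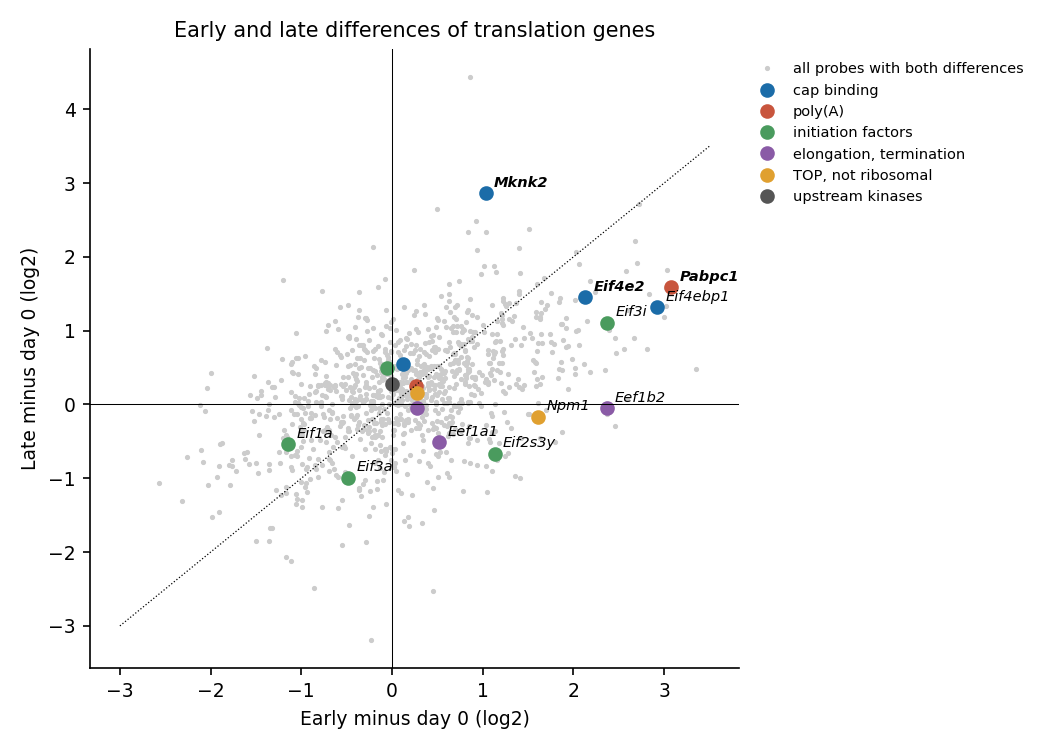
Early against late difference from day 0 (log2) for all probes with both (grey) and for translation genes by list (colours); the dotted line marks equal values, and genes close to the origin are not named. Mknk2 is above the line (1.03 early, 2.86 late), while Pabpc1 (3.08, 1.59), Eif4ebp1 (2.92, 1.32) and Eef1b2 (2.37, -0.052) are below it.

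Genes most like each member were sought over the 13 arrays, after each probe's own mean was removed, as the root mean square difference from the member. For Pabpc1 these were Actb at 0.42 log2, Aldh2 at 0.42, Dnm2 at 0.56, Cacng2 at 0.62 and Csf2ra at 0.64, over 11 or 12 arrays. A median probe differed from Pabpc1 by 1.62. This probe of Actb, a cytoplasmic actin, shared the low day 0 level of Pabpc1, with means of -2.66 on day 0, -0.48 early and -1.97 late. It was 2.47 log2 above day 0 early and 0.70 late in the fit. Another tested Actb probe was only 0.91 above day 0 early and 0.37 late.

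For Eif4e2 they were Ssb at 0.61, Atpif1 at 0.64, Nptn at 0.68, Gapdh at 0.70 and Rplp0 at 0.76, over 10 or 11 arrays, against a median of 1.56. Gapdh, a glycolytic enzyme, had means of -2.18 on day 0, -0.77 early and -1.22 late. Nptn and Rplp0 were also higher late than on day 0. Ssb and Atpif1, the nearest to Eif4e2, went the other way, with late means of -2.03 and -2.42 and day 0 means of -1.09 and -1.84. For Mknk2 they were Npy4r at 0.66, Hmga2 at 0.68, Cib1 at 0.75, P4hb at 0.76 and Prkar1a at 0.77, over 10 or 11 arrays, against a median of 1.49. P4hb, a disulfide isomerase, had means of -1.08 on day 0, 0.08 early and 0.53 late. Npy4r, Cib1 and Prkar1a were also higher early and late than on day 0. Hmga2 had 1.21 on day 0, 0.52 early and 1.36 late. Points within a member's profile share arrays and their spread, so likeness is a description of these arrays.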

How the data were processed

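Per the labels, RNA of MEL cells in HMBA and of uninduced cells was hybridised on 18 two-colour arrays. The authors deposited log2 ratios, as the values themselves show. Among values under -1, 100 percent were logs of ratios written with 3 decimals on the 13 arrays not titled SD. On the 5 SD arrays this held, with the sign turned, for 100 percent of values over 1. The SD values were thus already minus the log of the written ratio. Whether this put them in the direction of the other 13 arrays was not tested. The sources used here named no dyes, scanner or normalization, so the numerator channel and the direction as such stayed unknown. Array medians as deposited ran from -0.15 to 0.70, and centring subtracted that median from every array. No spot signals were used, so signal over background is unknown and the number of arrays limits precision.

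Probe symbols came from the platform annotation, where 6108 probes had 1 symbol, 41 several and 719 none. The 3 members matched RefSeq by Entrez identifier. Day means were fitted with limma 3.58.1 in R 4.3.3, with a shared spread (prior SD 0.971) and Benjamini-Hochberg adjustment at 0.05. The steps were tested on simulated data.

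Named were the members, the 5 probes most like each, up to 4 list genes at each end of late minus early, and close relatives. Btg1, Cnot4, Mtor, Pabpc2 and the cell markers with values were chosen after these were seen. Members and lists were chosen with earlier results of these data known. Alternatives covered centring, filter, SD arrays, baseline, replicate block, early as day 2, and single arrays left out.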

Additional observations from a re-analysis of the deposited data

Results flagged for a closer look

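The SD arrays, which the fits left out, held values above and below their own day 0 array. Mknk2 was 0.29 log2 above it on day 2 and 0.91 on day 6, but at -0.57 on day 3 and -1.30 on day 5. Pabpc1 was 1.24 above it on day 2, 1.05 on day 3 and 0.37 on day 5, but at -0.79 on day 6. Each is 1 array against 1 array, with the sign as deposited, which would invert if turned, and no test was possible. No day had the 4 arrays needed to look for an outlying array.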

How the results depend on the processing

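The members' differences kept their direction without centring, with quantile normalization, with equal spread of the arrays, with no filter, and with SD arrays turned and averaged in, each within the residual spread. Values that still moved by over 1.5 times were, with SD arrays turned, Pabpc1 at 1.65 early and 0.56 late and Mknk2 at 0.57 early. With quantile normalization Eif4e2 late minus early was -1.18. With equal spread it was -1.05, and Mknk2 early was 0.68. With values on all 13 arrays only Pabpc1 remained. Against 0, Eif4e2 was at -0.32 early and -0.9995 late, Pabpc1 at 0.22 and -1.27, and 309 late probes passed, though those p-values leave out the error of day 0. With all 18 arrays, SD signs as deposited, and an orientation term, Mknk2 was at -0.081 early and 1.62 late. With SD arrays averaged in as deposited it was at 0.44 early and 2.14 late. Pabpc1 was at 1.05 late with the orientation term and 1.003 with SD arrays as deposited. With day 2 alone as early, added after seeing the data, Mknk2 was at 2.65 early and 0.21 late minus early, Eif4e2 at 0.75 and 0.70, and Pabpc1 at 2.43 and -0.84.

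Pairing by series letter was checked by correlating A minus B differences between days over tested probes. Of 15 pairs of days, 14 had r over 0.1 (median 0.27) and 1 did not (-0.0098). The rule for pairing asked for all of them, so the letters were not taken as pairs, although most days shared a difference between series. With the letter as a replicate block 1 late probe passed and 0 in the other comparisons. Early, late and late minus early were then 1.02, 2.86 and 1.83 for Mknk2, 1.94, 1.32 and -0.62 for Eif4e2, and 2.57, 1.59 and -0.98 for Pabpc1. Their SEs were 1.12, 0.99 and 0.66 for Mknk2, 0.88, 0.79 and 0.71 for Eif4e2, and 0.86, 0.74 and 0.68 for Pabpc1. The block thus gave smaller SEs for Eif4e2 and Pabpc1 and larger ones for Mknk2. Leaving out single arrays called 0 late probes, or 1 once either day 3 array was dropped, and 0 in both other comparisons. Early values then ranged from 0.85 to 1.22 for Mknk2, 1.20 to 3.06 for Eif4e2 and 1.74 to 4.42 for Pabpc1. Late values ranged from 2.64 to 3.08, 0.52 to 2.38 and 0.25 to 2.93. Late minus early ranged from 1.61 to 2.05, -1.26 to -0.11 and -1.92 to -1.06. Without day 1 of series A no early value could be fitted, nor any late value of Eif4e2 without day 4 of series A. The causes of these shifts were not tested.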
